A study of Mus musculus with 20 samples.

Results

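The small nucleolar RNA (snoRNA) host genes Gas5, Snhg1, Snhg3, Snhg5, Snhg6, Snhg8, Snhg12 and Snhg15 were followed through a time course of IKZF1 induction. They were matched by symbol to mouse Ensembl identifiers, and all 8 were among the 56239 genes listed in the count table. The cells were B3, a mouse pre-B cell line that had been retrovirally transduced with Ikaros-ERt2, which is IKZF1 (Ikaros) fused to ERt2, the mutated ligand-binding domain of the estrogen receptor. The fusion enters the nucleus when 4-hydroxytamoxifen (4-OHT) is added. Every library came from these transduced cells. The 0 h group had received no 4-OHT, and the other 9 groups had been in 500 nM 4-OHT for 30 min, 1 h, 2 h, 6 h, 12 h, 15 h, 18 h, 21 h or 24 h. Each of the 10 time points had 2 replicates. RNA that stays bound to chromatin, which is rich in transcripts still being made, was sequenced after depletion of ribosomal RNA. No vehicle series and no cells carrying ERt2 alone are among these 20 libraries, so that the fusion protein, 4-OHT itself and time in culture cannot be told apart.

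A snoRNA host gene makes a transcript whose introns hold snoRNAs. After splicing, each snoRNA is trimmed out of its intron, and most snoRNAs guide the chemical modification of ribosomal and other RNAs. Of those that do, box C/D snoRNAs guide 2′-O-methylation and box H/ACA snoRNAs guide pseudouridylation. Many host genes carry a 5′ terminal oligopyrimidine (TOP) tract at their start, as the genes of ribosomal proteins do, and their spliced transcripts code for little or no protein and are removed by nonsense-mediated decay. Gas5 takes its name, growth arrest specific, from cells that stop dividing, in which the spliced transcript accumulates because it is no longer decayed. That decay takes place in the cytoplasm, which chromatin-bound RNA has not yet reached.

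The snoRNAs give these genes their role, and GENCODE M21 (GRCm38/mm10) places 30 annotated snoRNA genes within the 8 hosts on the same strand. Some of these annotations overlap each other, as both entries of Snord80 in Gas5 and of Snora16a in Snhg12 do. Gas5 held 10 of them, Snhg1 8, Snhg12 5, Snhg3 and Snhg5 2 each, and Snhg6, Snhg8 and Snhg15 1 each. The snoRNA genes named in the annotation are of the C/D class in Gas5 (Snord47, Snord78 and Snord80), Snhg1 (Snord22), Snhg5 (Snord50a and Snord50b) and Snhg6 (Snord87). They are of the H/ACA class in Snhg3 (Snora73a and Snora73b), Snhg8 (Snora24) and Snhg15 (Snora9), and Snhg12 carries both kinds (Snora16a, Snora44, Snora61 and Snord99). Below, 3 C/D snoRNAs and 1 H/ACA snoRNA are shown as DNA letters from the GENCODE M21 transcripts, to let the boxes that define each class be seen. Capitals mark TGATGA (box C) and CTGA (box D) in the first 3, and ACA near the 3′ end of the last. Snord47 lies at chr1:161038082-161038158 on the plus strand inside Gas5, Snord50a at chr9:88521529-88521600 on the minus strand inside Snhg5, Snord87 at chr1:9942463-9942549 on the minus strand inside Snhg6, and Snora24 at chr3:123507937-123508066 on the minus strand inside Snhg8.
Snord47: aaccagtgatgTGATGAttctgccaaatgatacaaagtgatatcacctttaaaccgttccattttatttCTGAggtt
Snord50a: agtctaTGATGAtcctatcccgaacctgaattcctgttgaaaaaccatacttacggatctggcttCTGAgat
Snord87: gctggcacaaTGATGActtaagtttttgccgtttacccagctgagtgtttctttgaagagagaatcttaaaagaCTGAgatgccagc
Snora24: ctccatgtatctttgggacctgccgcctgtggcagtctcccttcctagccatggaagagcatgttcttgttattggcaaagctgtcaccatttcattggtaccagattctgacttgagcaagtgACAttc

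Start regions were read from RefSeq promoter windows of GRCm38.p6, which matched 7 of the 8 hosts. Gas5 had 2 windows, of which the downstream one is shown. The other held no TATA at the distance given below, and its longest pyrimidine run was 3 bases. The lines below run from 40 bases before the RefSeq start to 20 bases after it. Capitals mark TATA, a palindrome and so the same on both strands, where it lay between 45 and 15 bases before the start, and the longest run of C and T on the sense strand that came within 10 bases of the start. Both features were chosen after the sequences had been seen. The printed stretches are chr1:161035126-161035186 (plus) for Gas5, chr19:8723447-8723507 (plus) for Snhg1, chr4:132353666-132353726 (minus) for Snhg3, chr9:88522877-88522937 (minus) for Snhg5, chr3:123508316-123508376 (minus) for Snhg8, chr4:132308638-132308698 (plus) for Snhg12 and chr11:6528740-6528800 (minus) for Snhg15.
Gas5: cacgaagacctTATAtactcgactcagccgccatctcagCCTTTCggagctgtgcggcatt
Snhg1: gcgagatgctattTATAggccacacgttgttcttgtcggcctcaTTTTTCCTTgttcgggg
Snhg3: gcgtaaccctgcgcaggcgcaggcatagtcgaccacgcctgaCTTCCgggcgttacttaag
Snhg5: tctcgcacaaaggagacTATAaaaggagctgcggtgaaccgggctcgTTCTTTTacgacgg
Snhg8: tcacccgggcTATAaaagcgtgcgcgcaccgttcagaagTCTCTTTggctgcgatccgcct
Snhg12: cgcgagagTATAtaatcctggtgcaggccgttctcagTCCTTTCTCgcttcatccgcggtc
Snhg15: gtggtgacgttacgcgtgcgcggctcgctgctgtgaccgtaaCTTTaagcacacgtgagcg
TATA lay at that distance in 5 of the 7 matched hosts (Gas5, Snhg1, Snhg5, Snhg8 and Snhg12), against 6.72% of all 32851 promoter windows. The longest pyrimidine run was 9 bases in Snhg1 and Snhg12, 7 in Snhg5 and Snhg8, 6 in Gas5, 5 in Snhg3 and 4 in Snhg15. Runs of 4 or more bases came near the start of 65.1% of all windows, runs of 5 or more of 45.9% and runs of 6 or more of 30%. For runs of 7 or more the share was 20.2%, and for runs of 9 or more 9.75%. These are descriptions of letters, and no binding or start-site data were used here.

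The libraries held 33296158 to 46868954 counts (median 40943260), and 16601 genes that reached 10 counts in 2 or more of them were tested. Of 11 pre-B cell markers 9 were at 1 CPM (reads scaled to a common library size) or more at 0 h and 7 at 24 h, and Rag1 and Rag2 were listed at 0 in all 20 libraries, each lying entirely under another annotated gene. The summed level of the 3 T cell, 2 erythroid and 2 fibroblast markers stayed under 1 CPM in every library, and that of the 3 myeloid markers reached at most 1.43 CPM. Of the latter, Itgam was also listed at 0 in all 20 libraries and has 99.9% of its length in common with another gene, so that only Lyz2 and Csf1r were informative. Replicates did not differ equally at all time points. Per degree of freedom, the chi-square between them was 1.26 to 1.77 from 0 to 6 h and at 15 h, but 9.95 at 12 h, 14.9 at 18 h, 4.78 at 21 h and 2.58 at 24 h. Whether the 0 h libraries came from separate cultures is left unsaid by the labels, so that p-values may measure a spread that is in part technical.

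The way reads were assigned to overlapping genes limits what can be seen of the snoRNAs. All 30 snoRNA genes inside the hosts had 0 counts in all 20 libraries, and so had all 677 snoRNA genes that lie within another gene on the same strand and all 216 that lie within one on the opposite strand. Among the 602 snoRNA genes that overlap no other gene, 75.1% were at 0. Over all classes of gene, 6475 of 6477 genes nested on the same strand and 6261 of 6267 nested on the opposite strand were at 0, against 37.3% of genes without an overlap. Reads that fall on more than 1 gene thus appear to have gone uncounted for the nested gene and may have gone uncounted for its host as well, and the levels of the embedded snoRNAs are not measured here. The share of its length that a host had in common with other genes was 4.20% in Snhg15, 7.66% in Snhg5, 9.91% in Snhg6, 15.2% in Snhg8, 19.6% in Snhg12, 20.9% in Snhg1 and 26.6% in Gas5. In Snhg3 it was 98.6%.

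At 0 h, Gas5 was the most abundant of the hosts in chromatin-associated RNA, and 7 of the 8 gave counts that could be tested. Levels between genes are compared per kb of gene, from start to end because intronic reads were counted, after scaling with edgeR's TMM factors. Gas5 stood at 80.2 ± 0.659 CPM per kb (SD, n = 2), Snhg1 at 39.6 ± 0.317, Snhg5 at 36.3 ± 0.0938, Snhg12 at 19.2 ± 0.243, Snhg8 at 18.6 ± 0.168, Snhg6 at 16.8 ± 0.187 and Snhg15 at 9.23 ± 0.413 CPM per kb. At this time point the values of no neighbours in this order overlapped between libraries. Counted per kb that is shared with no other gene, Gas5 stood at 109 and Snhg15 at 9.63 CPM per kb, and the order was the same. Per exonic kb it was not, because Snhg6 (31.7) and Snhg15 (21.5) then stood above Snhg12 (19.2) and Snhg8 (18.6), and Snhg1 and Snhg5 overlapped. By 24 h the order per kb had changed, with Snhg5 (5.28 CPM per kb) above Snhg1 (3.39) and Snhg8 (3.04) above Snhg6 (1.52) and Snhg12 (1.47), of which the last 2 overlapped. Gas5 (9.43 CPM per kb) was still the highest and Snhg15 (0.817) the lowest. Per exonic kb Gas5 was also the highest at 24 h, at 10.3 CPM, but Snhg15 (1.91) stood above Snhg12 (1.47), which was then the lowest.

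After induction, all 7 host genes that could be tested fell, to between 7.65% and 16.4% of their 0 h level at 24 h. The summed level of the 7 went from 644 ± 3.30 CPM at 0 h to 371 ± 3.59 at 6 h, 181 ± 0.415 at 15 h and 70.8 ± 0.467 at 24 h (SD, n = 2). Gas5 made up 51.3% of that sum at 0 h and 54.8% at 24 h. In bulk RNA of this kind, fewer cells that transcribe a gene and less RNA per cell cannot be told apart.

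**Figure D1:**
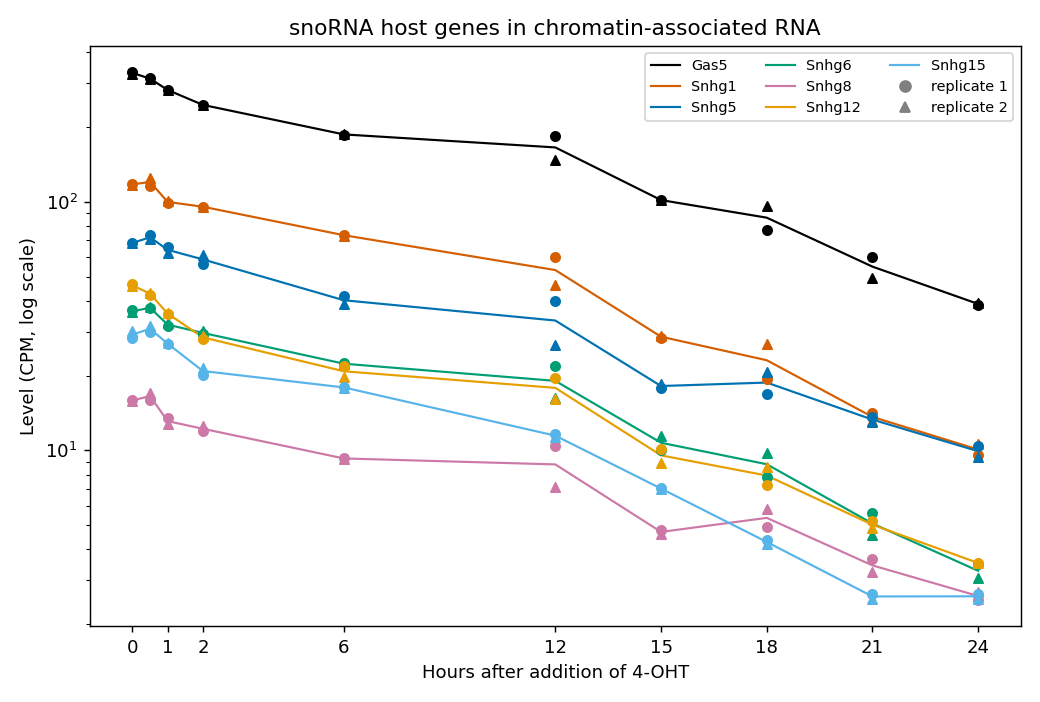
Level of 7 snoRNA host genes in chromatin-associated RNA, in TMM-scaled CPM on a log axis, against hours after addition of 4-OHT; circles and triangles are replicates 1 and 2 and lines join their means. Gas5 runs from 330 CPM at 0 h to 38.8 CPM at 24 h, and the replicates lie apart at 12 and 18 h.

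Induced and 0 h libraries were compared with edgeR's quasi-likelihood test, 1 model holding all 20, and p-values were adjusted over all 16601 genes by Benjamini-Hochberg. A gene passed when the adjusted p-value was under 0.01 and was called when its fold change also exceeded 2. At 30 min none of the 7 hosts passed (4.74% of all genes tested passed downwards) or was called (0.41%), none had an unadjusted p-value under 0.05 and DESeq2 also passed none. At 1 h only Snhg12 passed, against 17.1% of all genes. None was called (4.84% of all genes), 5 had an unadjusted p-value under 0.05 and DESeq2 called none. At 2 h 5 hosts passed (23.8% of all genes) and none was called (6.91% of all genes), with 6 at an unadjusted p-value under 0.05 and none called by DESeq2. Snhg5 and Snhg6 did not pass at 2 h, at log2 fold changes of -0.22 and -0.29. Both passed without a filter on low counts, in a model of only the 4 libraries compared and in one without 12, 18 and 21 h. How many of all genes passed there was not counted. From 6 h on all 7 passed, where the shares of all genes were 27.3% at 6 h, 29.5% at 12 h, 32.6% at 15 h, 36% at 18 and 21 h and 36.1% at 24 h.

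The 2-fold fall came later. At 6 h 1 host was called down, Snhg12, when 9.13% of all genes were called down. At 12 h 4 were called (Snhg1, Snhg5, Snhg12 and Snhg15) against 9.92% of all genes, and Gas5, Snhg6 and Snhg8 lay at log2 fold changes of -0.997, -0.937 and -0.866. All 7 were called down at 15 h (13.1% of all genes), 18 h (17.6%), 21 h (19.4%) and 24 h (20.1%). None was called up at any time point, none had an unadjusted p-value under 0.05 in that direction, and DESeq2 called none up. Of all genes tested, 0.0542% were called up at 30 min, 2.33% at 1 h, 6.25% at 2 h, 10.9% at 6 h, 13.2% at 12 h, 15.3% at 15 h, 19.1% at 18 h, 20.1% at 21 h and 20% at 24 h. All 7 also changed over the whole time course, as 51.9% of all genes tested did.

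The 7 hosts had a median log2 fold change of -3.47 at 24 h, with a range from -3.71 to -2.61, against -0.01 over all 16601 genes. Between 1.70% and 4.73% of all genes tested had a lower log2 fold change than a given host. Non-coding genes did not move that way as a class. Among 2258 tested non-coding genes, the 7 hosts included, 17.5% were called down and 29.9% were called up at 24 h. Their median log2 fold change was 0.35. Scaling by library totals alone, without a factor for composition, shifted the median of all genes at 24 h to -0.27 and that of the hosts to -3.73, and the genes called then split into 4260 down and 2603 up, in place of 3329 down and 3323 up.

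**Figure D2:**
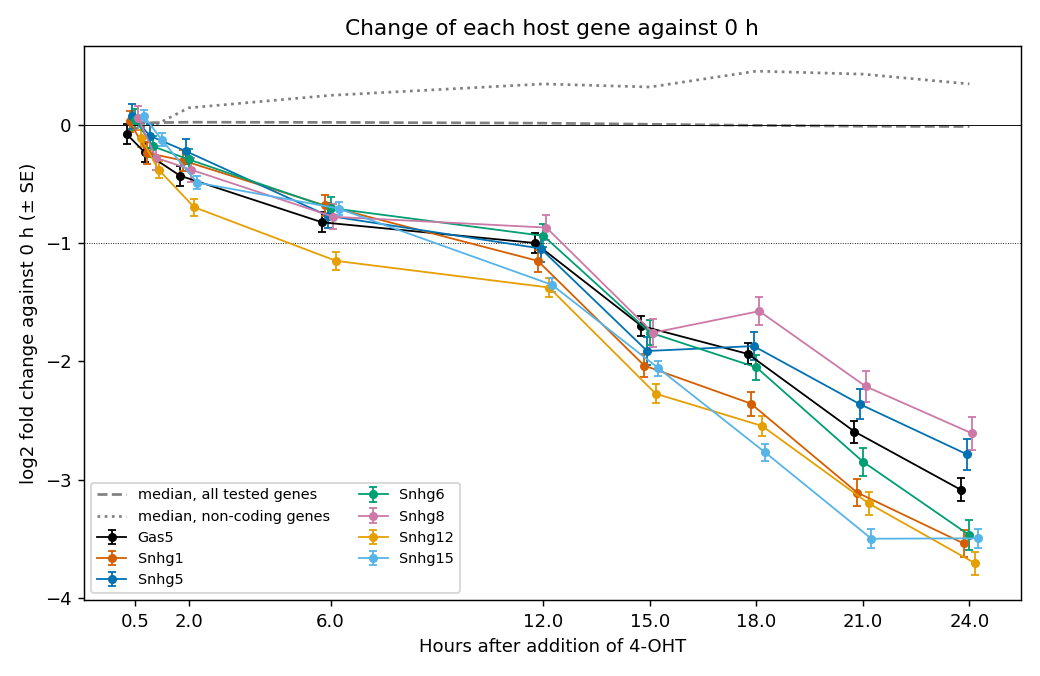
Log2 fold change against 0 h (± SE, edgeR) of each host gene at 9 time points, with the medians of all tested genes and of non-coding genes as grey lines and a dotted line at a 2-fold fall. Snhg12 lies lowest from 1 to 15 h, and at 24 h the hosts lie between -3.71 and -2.61 while the median of all genes is at -0.01.

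Gas5 (ENSMUSG00000053332, chromosome 1 of GRCm38/mm10, 161034422 to 161038539, plus strand) carries the most snoRNAs of the set, Snord47 among them. Its libraries read 332 and 328 CPM at 0 h, 282 and 282 after 1 h, 245 and 246 after 2 h, 186 and 187 after 6 h, 184 and 147 after 12 h, 102 and 101 after 15 h, 76.9 and 95.9 after 18 h, 60.2 and 49.5 after 21 h, and 38.4 and 39.3 after 24 h. Replicates lay within a few CPM of each other up to 6 h. From 30 min on, where they read 314 and 312 CPM, no library reached the 0 h values. With 2 libraries a group, such separation from 0 h is a description only, here and for the hosts below. It was not counted over all genes. At 30 min it was seen downwards in 2 hosts (Gas5 and Snhg12) and upwards in 3 (Snhg5, Snhg6 and Snhg8), and none of them passed. The log2 fold change of Gas5 was -0.43 at 2 h (SE 0.0836, edgeR adjusted p = 0.000159) and -3.09 at 24 h (SE 0.0959, edgeR adjusted p = 1.05e-17), an 8.50-fold fall.

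Snhg1 (ENSMUSG00000108414, chromosome 19, 8723475 to 8726443, plus strand) carries Snord22 and 7 further snoRNA genes, and its annotated exons, merged over all isoforms, cover its entire length. It stood at 118 and 117 CPM at 0 h, 99.2 and 101 after 1 h, 95.7 and 95.5 after 2 h, 73.8 and 73.1 after 6 h, 60.03 and 46.3 after 12 h, 28.4 and 29.0 after 15 h, and 9.54 and 10.6 after 24 h. On the mean of both replicates, the largest drop between sampled levels fell between 12 and 15 h. No library from 1 h on overlapped those of 0 h. The fall passed the test narrowly at 2 h, at a log2 fold change of -0.30 (SE 0.0904, edgeR adjusted p = 0.00757). This call was lost with DESeq2 (adjusted p = 0.0113) and when any 1 library of 0 h or 2 h was left out. At 24 h the log2 fold change of Snhg1 was -3.54 (SE 0.115, edgeR adjusted p = 2.50e-17).

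Snhg5 (ENSMUSG00000097195, chromosome 9, 88521050 to 88522929, minus strand) carries the C/D pair Snord50a and Snord50b. Its levels were 68.2 and 68.5 CPM at 0 h, 73.3 and 70.8 after 30 min, 56.1 and 61.3 after 2 h, 41.7 and 38.7 after 6 h, 40.1 and 26.5 after 12 h, 17.9 and 18.4 after 15 h, 16.8 and 20.7 after 18 h, and 10.4 and 9.44 after 24 h. Both libraries at 30 min were above both at 0 h, as in Snhg6 and Snhg8, a rise that did not pass in Snhg5 (edgeR adjusted p = 0.728). The later libraries of Snhg5 were all below. Its log2 fold change was -0.77 at 6 h (SE 0.108, edgeR adjusted p = 2.14e-06) and -2.78 at 24 h (SE 0.130, edgeR adjusted p = 1.49e-14).

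Snhg6 (ENSMUSG00000098234, chromosome 1, 9941959 to 9944118, minus strand), host of Snord87, read 36.6 and 36.0 CPM at 0 h, 29.3 and 30.1 after 2 h, 22.4 and 22.2 after 6 h, 21.8 and 16.3 after 12 h, 10.1 and 11.4 after 15 h, and 3.49 and 3.07 after 24 h. It missed the threshold at 2 h (edgeR adjusted p = 0.0103), with both libraries below those of 0 h. By 24 h its log2 fold change was -3.47 (SE 0.128, edgeR adjusted p = 2.18e-16).

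Snhg8 (ENSMUSG00000104960, chromosome 3, 123507552 to 123508404, minus strand) is the shortest of the hosts and carries Snora24. Its levels were 15.99 and 15.8 CPM at 0 h, 12.0 and 12.5 after 2 h, 9.36 and 9.21 after 6 h, 10.5 and 7.10 after 12 h, 4.79 and 4.61 after 15 h, 4.92 and 5.79 after 18 h, and 2.51 and 2.69 after 24 h. Of the 7 hosts it fell least, to 16.4% of its 0 h level, a log2 fold change of -2.61 (SE 0.137, edgeR adjusted p = 1.13e-13). At 2 h it passed (log2 fold change -0.38, edgeR adjusted p = 0.00347), but not when any 1 library of 0 h or 2 h was left out.

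Snhg12 (ENSMUSG00000086290, chromosome 4, 132308623 to 132311024, plus strand) carries H/ACA snoRNAs beside Snord99. It was at 46.5 and 45.7 CPM at 0 h, 42.3 and 43.2 after 30 min, 35.3 and 35.8 after 1 h, 28.1 and 28.9 after 2 h, 21.8 and 19.8 after 6 h, 19.6 and 16.1 after 12 h, 10.2 and 8.93 after 15 h, and 3.52 and 3.53 after 24 h. It was the only host to pass at 1 h and the only one called at 6 h. Its libraries at 30 min were below those of 0 h, as those of Gas5 were, without passing the test (edgeR adjusted p = 0.358). The log2 fold change was -0.38 at 1 h (SE 0.0708, edgeR adjusted p = 0.000144), -0.69 at 2 h (SE 0.0725, edgeR adjusted p = 4.12e-08) and -1.15 at 6 h (SE 0.0741, edgeR adjusted p = 1.21e-11). At 24 h it was -3.71 (SE 0.0995, edgeR adjusted p = 8.04e-19), a 13.1-fold fall and the deepest among the 7. Whether Snhg12 differed from the other hosts in speed was not tested.

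Snhg15 (ENSMUSG00000085156, chromosome 11, 6525591 to 6528760, minus strand), host of Snora9, was the one host whose level did not fall further after 21 h. It read 28.3 and 30.2 CPM at 0 h, 26.7 and 27.0 after 1 h, 20.2 and 21.5 after 2 h, 18.0 and 17.9 after 6 h, 11.6 and 11.3 after 12 h, 7.06 and 6.99 after 15 h, 4.36 and 4.21 after 18 h, 2.65 and 2.52 after 21 h, and 2.65 and 2.52 after 24 h. Unlike the other hosts its replicates stayed close at 12 and 18 h. The log2 fold change was -0.49 at 2 h (SE 0.0563, edgeR adjusted p = 1.94e-07), -3.50 at 21 h (SE 0.0805) and -3.50 at 24 h (SE 0.0793, edgeR adjusted p = 4.55e-20).

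Snhg3 (ENSMUSG00000085241, chromosome 4, 132348014 to 132353686, minus strand), host of Snora73a and Snora73b, could not be tested. It had 9 counts in all, with 14 libraries at 0 and at most 3 counts in any one. All but 81 bases of it lie within Rcc1 or another annotated gene, and Rcc1, which encodes a nuclear exchange factor for the GTPase Ran, runs on the same strand. Reads from Snhg3 and Rcc1 cannot be told apart in these counts, and Snhg3 is left out of all counts of hosts that moved. Rcc1 itself went from 55.8 ± 0.245 CPM at 0 h to 34.3 ± 0.0448 at 6 h and 7.41 ± 0.614 at 24 h (SD, n = 2), a log2 fold change of -2.91 at 24 h (SE 0.0601, edgeR adjusted p = 9.18e-21).

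The number of hosts that passed differed from one sampled step to the next. For each gene the model shared a single spread over all time points, while replicates differed most at 12 and 18 h (chi-square per degree of freedom 9.95 and 14.9). The p-values of steps into or out of 12 and 18 h may therefore be too small. Between neighbouring time points, all 7 hosts passed downwards from 2 to 6 h (14.8% of all genes did) and all 7 from 12 to 15 h (10% of all genes), and 6 of 7 from 18 to 21 h (5.31%). In the other steps fewer passed, namely 2 from 30 min to 1 h (15.7%), 2 from 1 to 2 h (13.3%), 2 from 6 to 12 h (13.5%), 1 from 15 to 18 h (16.1%) and 1 from 21 to 24 h (4.57%). No single step of any host was called at a fold above 2, as 0.151% to 3.26% of all genes were (3.08% from 30 min to 1 h, 1.08% to 2 h, 3.26% to 6 h, 2.11% to 12 h, 0.337% to 15 h, 0.361% to 18 h, 0.199% to 21 h and 0.151% to 24 h). The largest step was that from 12 to 15 h, with log2 fold changes from -0.90 to -0.70 and a median of -0.87. The other medians were -0.23 from 30 min to 1 h, -0.13 from 1 to 2 h, -0.40 from 2 to 6 h, -0.24 from 6 to 12 h, -0.27 from 15 to 18 h, -0.66 from 18 to 21 h and -0.43 from 21 to 24 h. The steps are of unequal length, so that these values are not rates. Snhg15 passed from 6 to 12 h (log2 fold change -0.65, edgeR adjusted p = 5.83e-08), as did Snhg1 (-0.47, edgeR adjusted p = 0.000498). It was the only host to pass from 15 to 18 h (-0.71, edgeR adjusted p = 1.08e-06). Whether Snhg15 differed from the other hosts in these steps was not tested.

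**Figure D3:**
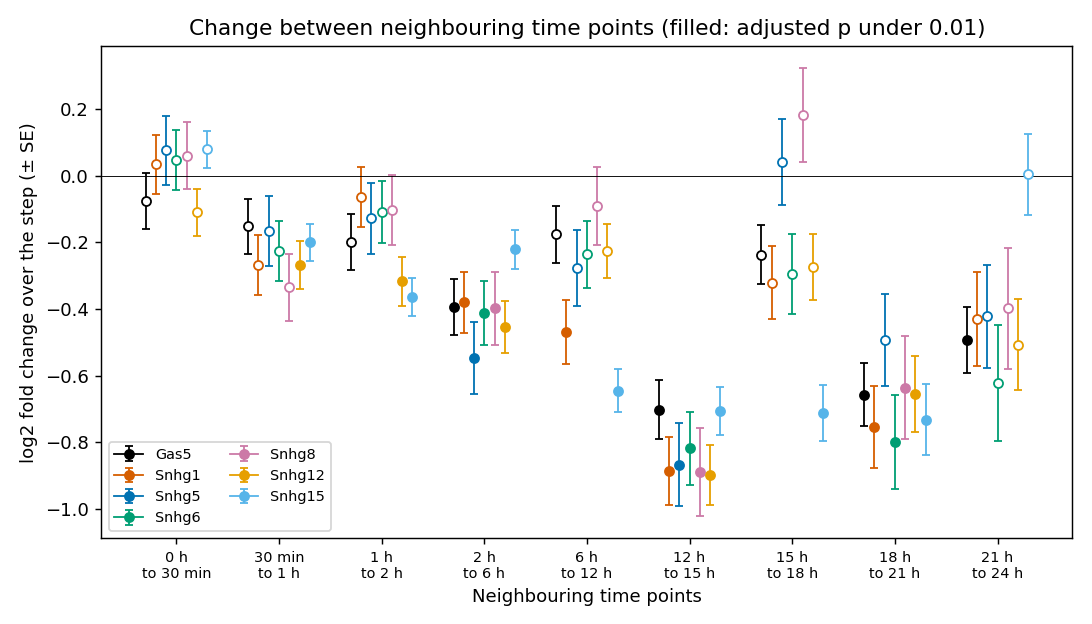
Log2 fold change (± SE, edgeR) of each host gene between neighbouring time points; filled points passed at an adjusted p-value under 0.01. All 7 points are filled and below 0 from 2 to 6 h and from 12 to 15 h, and Snhg15 is the only filled point from 15 to 18 h, at -0.71.

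Time to a 2-fold fall was read from the log2 level, interpolated linearly between time points. Snhg12 reached it at 4.70 h, Snhg15 at 8.73 h, Snhg1 at 10.1 h, Snhg5 at 11.2 h, Gas5 at 12.0 h, Snhg6 at 12.3 h and Snhg8 at 12.5 h. Only Snhg12 was set apart in both replicates, at 4.99 and 4.49 h. The replicates of Gas5 gave 12.5 and 9.26 h and those of Snhg5 12.6 and 7.94 h, so that the order of the later hosts lies within the spread between replicates. A 4-fold fall was reached between 14.1 h (Snhg12) and 20.03 h (Snhg8).

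Replicates lay furthest apart at 12 h and 18 h, with most hosts on the same side. Replicate 1 was the higher in 7 of 7 hosts at 12 h, by 1.03-fold in Snhg15 to 1.51-fold in Snhg5, and in 7 of 7 at 21 h, by 1.05-fold to 1.23-fold. At 18 h replicate 2 was the higher in 6 of 7. At 0 h the higher library exceeded the lower by at most 1.07-fold. Leaving out replicate 1 of 12 h left 7 hosts called down at that time point and leaving out replicate 2 left 2, in place of 4. The part of this replicate difference in the steps into and out of 12 and 18 h was not tested.

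Among the genes that start within 5 kb of a host, 4 were tested, namely Rcc1 (above), Slc3a2, Zbtb37 and Gm9369. Slc3a2, which encodes the heavy chain of an amino acid transporter, starts 106 bases from Snhg1 and runs the other way, so that both share a promoter region. Its libraries averaged 93.1 ± 1.19 CPM at 0 h, 48.6 ± 0.840 at 1 h, 62.6 ± 0.156 at 6 h and 21.3 ± 0.536 at 24 h (SD, n = 2). Slc3a2 had a log2 fold change of -0.27 at 30 min (SE 0.0429, edgeR adjusted p = 0.000126) and -0.94 at 1 h (SE 0.0440, edgeR adjusted p = 1.54e-13), where Snhg1 was at 0.03 and -0.23. At 24 h the order was the other way, with Slc3a2 at -2.13 and Snhg1 at -3.54. The difference between both genes was not tested.

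Zbtb37, a zinc finger gene on the opposite strand whose first 428 bases overlap Gas5, did not fall. Its level was 53.9 ± 0.246 CPM at 0 h, 54.5 ± 2.64 at 15 h and 79.4 ± 2.26 at 24 h (SD, n = 2), a log2 fold change of 0.56 at 24 h (SE 0.0535, edgeR adjusted p = 3.85e-09), while Gas5 was at -3.09. Scaled by library totals alone, the log2 fold change of Zbtb37 was 0.30 (edgeR adjusted p = 1.57e-05). Mcmdc2, whose end overlaps 127 bases of the end of Snhg6 on the opposite strand, went from 14.5 ± 0.0111 to 2.66 ± 0.466 CPM, which is a log2 fold change of -2.44 at 24 h (edgeR adjusted p = 4.03e-14), with Snhg6 at -3.47. Its log2 fold change at 2 h was 0.21, without passing, against -0.29 for Snhg6. The pseudogene Gm9369, 2270 bases upstream of Snhg8, stayed under 1 CPM on average at each time point and passed at none.

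**Figure D4:**
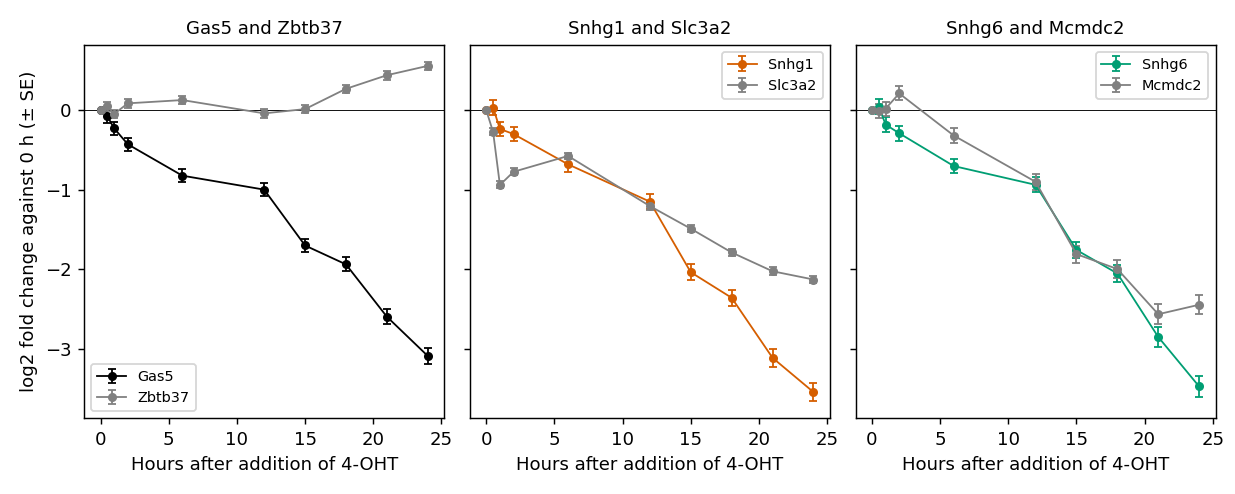
Log2 fold change against 0 h (± SE, edgeR) of 3 host genes in colour and the adjoining or overlapping gene in grey, by hours after addition of 4-OHT. Gas5 falls to -3.09 while Zbtb37 ends at 0.56, and Slc3a2 is at -0.94 at 1 h where Snhg1 is at -0.23.

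Likeness of pattern was measured as Pearson's r of log2 CPM over the 20 libraries, which share time point and scaling, so that r is a description only. The 21 pairs of hosts had r between 0.970 and 0.997, and many other genes lay as close to some hosts. Of the 9274 genes compared below, 614 had a higher r with Snhg15 than Snhg8 had. A further comparison gave 113 with a higher r than Snhg1, the host closest to Snhg15. At the other end, none had a higher r with Gas5 than Snhg6 had. Among 9274 other genes averaging at least 5 CPM, those most like Gas5 were Pinx1 (r = 0.997), a telomerase inhibitor found in the nucleolus, and Mat2a (0.996), which makes S-adenosylmethionine. The genes most like Snhg1 were Nap1l1, a histone chaperone gene, and Sf3b3, a splicing factor gene (both r = 0.997). For Snhg5 they were the translation initiation factor genes Eif1a (0.995) and Eif4e (0.993), and for Snhg6 Nap1l1 (0.997) and Pinx1 (0.996). Snhg8 was most like Serbp1 and Wdr36 (both 0.993), and Snhg15 most like Smpd4 (0.997) and Tfdp1 (0.996). Snhg12 was closest to Nop56 (0.997), a core protein of C/D snoRNPs and itself a snoRNA host, and to Npm1 (0.996), the nucleolar phosphoprotein nucleophosmin. With the 10 time point means in place of the libraries, both named genes were kept for Snhg1 and Snhg12 and 1 of 2 for each of the other 5.

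Other genes of the snoRNA pathway were taken from lists, with 20.1% of all genes called down and 20% called up at 24 h as the background. Of 13 further non-coding snoRNA hosts 8 were tested, and 6 were called down at 24 h, with a median log2 fold change of -2.12. Zfas1 (-3.09), Dancr (-2.99) and Snhg16 (-2.95) were the lowest, and Snhg14 (-0.61) and Snhg20 (-0.96) passed without being called. Snhg16 was also called down at 2 h (log2 fold change -1.01), which none of the 7 hosts above was. Among 28 protein-coding snoRNA hosts, 18 were called down (median -1.19). They were led by Nop56 (-3.43), the ribosome assembly gene Ppan (-2.88) and nucleolin, Ncl (-2.71).

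Proteins that bind snoRNAs were measured next. In the C/D core, 3 of 4 genes were called down (Nop56 -3.43, Nop58 -2.78, and Fbl, the methyltransferase fibrillarin, -2.24), while Snu13, at 0.24, passed upwards without being called. Scaled by library totals alone, Snu13 was at -0.02 and did not pass (edgeR adjusted p = 0.754). In the H/ACA core, Nhp2 (-2.53), Gar1 (-2.41) and Nop10 (-1.26) were called down, and the pseudouridine synthase gene Dkc1 passed at -0.93. Of 9 snoRNP assembly genes 6 were called down, led by Shq1 (-2.38), Ruvbl2 (-2.00) and Znhit3 (-1.90).

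Genes for the trimming and decay of these RNAs were less uniform. Of 13 tested snoRNA maturation and nuclear exosome genes 7 were called down, the lowest Exosc1 (-2.25), Exosc2 (-2.23) and Dis3 (-2.07), and Parn, a deadenylase gene, was called up (1.55). In nonsense-mediated decay, the pathway that removes spliced host transcripts, 2 of 10 genes were called down (Smg5 at -1.42 and Smg9 at -1.05). That is near the 20.1% of all genes called down, and the median log2 fold change was -0.08. In all, 5 of the 10 passed downwards, where 36.1% of all genes tested did. Upwards 3 passed, namely Upf2 (0.69), Smg6 (0.48) and Upf3b (0.39), and the share of all genes that did so is not given here. Upf3b did not pass when scaled by library totals alone (0.13, edgeR adjusted p = 0.0203). Among 7 regulators of TOP transcripts 3 were called down, namely Eif4ebp1 (-3.23), a repressor of cap-dependent translation, Larp1 (-2.15), which binds TOP transcripts, and Mtor (-1.10). In all, 5 of the 7 passed downwards (36.1% of all genes) and 1 upwards, Rps6kb1 (0.46), which was not called. Eif4ebp2 (0.098) did not pass. All values are log2 fold changes at 24 h against 0 h, and differences between these lists were not tested.

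**Figure D5:**
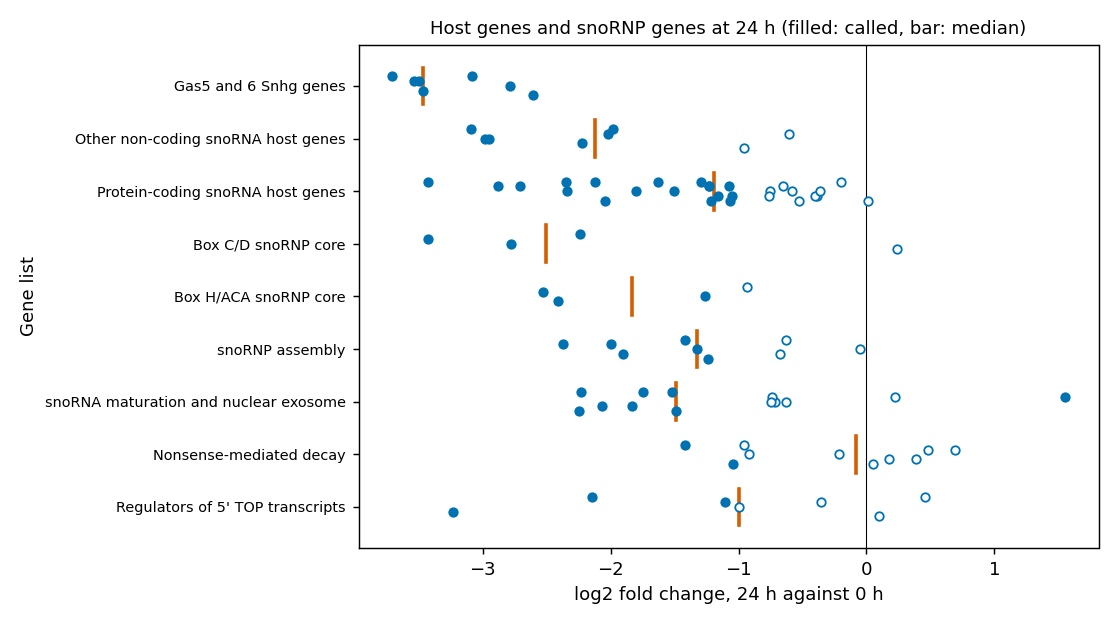
Log2 fold change at 24 h against 0 h of each tested gene (points) in the 7 hosts and 8 lists, with filled points for called genes and a bar at each list's median. The 7 hosts lie between -3.71 and -2.61, the median of the nonsense-mediated decay genes is at -0.08, and Parn is the 1 filled point above 0, at 1.55.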

How the data were processed

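Chromatin-associated RNA of B3 cells was analysed in 20 libraries. The authors aligned 75 bp paired-end reads to mm10 with STAR and used featureCounts to count reads over each gene with its introns. Deposited values are raw counts without normalization. The annotation release, the strand setting and the handling of shared reads are not given in the sources used here. Time points and replicate numbers came from the labels. Each column was assigned to its library by its name.

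Genes that reached 10 counts in 2 or more libraries were scaled with TMM factors (0.870 to 1.06) and tested with edgeR 4.0.16 in R 4.3.3, by a quasi-likelihood model with the time point as factor and Benjamini-Hochberg adjustment. DESeq2 1.42.0 was an alternative. The SE of a log2 fold change was taken from the fold change and its F statistic. Positions came from GENCODE M21, which held 55240 of the identifiers, and Snhg16 was matched through a RefSeq synonym, while Snhg4 and Snhg7 were not matched. Reads carry no molecular identifiers, and counting error is not the only limit on precision. Per degree of freedom, the chi-square between replicates was 1.26 at its lowest (2 h) and 14.9 at its highest (18 h).

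The 8 genes and all lists were chosen with earlier results of these data known. Named genes are the 8 hosts, the 2 genes most like each, tested neighbours starting within 5 kb, and in each list up to 3 called genes in each direction with the largest change at 24 h. Mcmdc2, Snhg14, Snhg20, Snu13, Dkc1, Upf2, Smg6, Upf3b, Rps6kb1 and Eif4ebp2 were named after their values had been seen. The comparison of 24 h with 0 h was also run on simulated data, in which the spread of a gene was the same at all time points. The steps between neighbouring time points were not run on simulated data. Alternatives were other scalings, filters, tests, thresholds and samples, each library left out in turn, the exonic length and the time point means. Lengths not shared with another gene, and a model without the libraries of 12, 18 and 21 h, were chosen after seeing the data.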

Additional observations from a re-analysis of the deposited data

How the results depend on the processing

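All 7 hosts were called down at 15, 18, 21 and 24 h and changed over the time course under every alternative run at those time points, and at 24 h the log2 fold changes stayed between -3.97 and -2.56. Of 483 log2 fold changes under another setting, 458 kept their direction and side of the threshold, 22 newly passed, 3 no longer passed and none reversed. The 3 were Snhg1 at 2 h with DESeq2, with at least 10 counts in every library and with the replicate block. The early counts moved most. At 1 h, where 1 host passed, 4 passed without a filter on low counts, 4 at an adjusted p-value under 0.05, 7 in a model of only the 4 libraries compared and 5 in a model without the libraries of 12, 18 and 21 h. At 30 min, where none passed, 2 passed in the model of only the 4 libraries and 1 in that without 12, 18 and 21 h. The cause of these shifts was not tested. How many of all genes passed under these settings was not counted, here or for the counts below. The shares of all genes given above for passing belong to the main model and threshold only.

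With 1 library left out, 3 hosts passed at 2 h in place of 5 whichever library of 0 h or 2 h it was. Without a filter on low counts, in a model of only the 4 libraries compared and in one without 12, 18 and 21 h, 7 passed at 2 h, Snhg5 and Snhg6 among them. With 1 library left out, 2 to 7 were called at 12 h in place of 4. A lone library was then assumed to vary like the others. Leaving out a library of 30 min moved the log2 fold change of Snhg1 there to between -0.018 and 0.082, a change of direction (adjusted p = 0.967 at the lower value). No consistent pairing by replicate number was seen, as deviations of same-numbered libraries correlated at 0.0195 on average over 45 pairs of time points (9284 genes). Single pairs of time points ran from -0.625 to 0.418, and pairing within them was not tested. With a replicate block in the model, 4 hosts passed at 2 h in place of 5, 4 were called at 12 h and 7 at 24 h. Per exonic kb, Gas5 stood at 87.8 CPM at 0 h, and Snhg6 and Snhg15 moved above Snhg12 and Snhg8. Snhg3, at 9 counts in 20 libraries and with 98.6% of its length shared, had a lowest adjusted p of 0.665 when every gene with a count was tested.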
